A study of Mus musculus with 15 samples.

Results

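The Eph receptors and ephrins, the Slits and Robos, and the netrins with their receptors were followed in sorted cortical cells, labelled as MGE-derived interneurons, that lacked *Lhx6* or carried the mutant label for *Mtg8*. The set was defined by gene name, not by level, and held 35 genes: 14 Eph receptors, 7 ephrins, 3 Slits, 3 Robo receptors, 2 netrins and 6 netrin receptors. All 35 were listed among the 26835 genes of the *Lhx6* table and among the 25714 genes of the *Mtg8* table.

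Each library came from YFP+ cells sorted from the cortex of 1 mouse embryo at embryonic day 14.5, of mixed C57BL6/CBA background. Every embryo, controls included, carried the Nkx2-1-Cre transgene and the R26R-YFP reporter, which mark cells from the *Nkx2-1* domain of the medial ganglionic eminence (MGE) and any other cells in which that Cre was active. Genes of the pyramidal lineage such as *Neurod6* had reads in every library of both tables, so the sorted RNA is not taken as that of MGE interneurons alone. The *Lhx6* table compares 4 Lhx6+/+ controls with 5 Lhx6-/- mutants, described as littermates, and the *Mtg8* table compares 3 Mtg8+/+ controls with 3 libraries labelled Mtg8-/-, an allele with lacZ knocked in. *Lhx6* itself, a LIM homeodomain gene of the MGE lineage, was at 5812 to 8441 normalized counts in its controls and at 236 to 495 in its mutants (log2 fold change -4.48, limma adjusted p = 1.34e-07). *Runx1t1*, the gene symbol of *Mtg8*, a transcriptional co-repressor, was at 7938 to 10264 in the *Mtg8* controls and at 12250 to 13934 in the 3 mutant-labelled libraries, so its counts do not check that label, and these are called the libraries labelled *Mtg8* mutant here. *Sst* was at 14420.5 to 18501 in those controls and at 5683 to 8048 in the mutant-labelled libraries (limma adjusted p = 0.0713), and *Npy* at 5037 to 6247 and 1952 to 3577 (0.580). A normalized count is the number of reads of a gene divided by the size factor of its library, and 1 read was worth 0.764 to 1.24 normalized counts in these libraries of 12218422 to 22053032 reads.

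Guidance cues tell a migrating neuron where to go and where to stop. Ephrin-A ligands are anchored to the membrane by a lipid and bind mainly EphA receptors, ephrin-B ligands span the membrane and bind mainly EphB receptors, and contact between a ligand on a cell and a receptor on its neighbour often repels. Slits are secreted and act through Robo receptors, which are known for steering interneurons on their way from the ganglionic eminences to the cortex. Netrins are secreted proteins that attract cells through DCC and neogenin and repel them where UNC5 receptors are present.

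In control cells the leading receptors and ephrins were expressed at far higher levels than the secreted cues. Levels were compared between genes as normalized counts per kilobase (kb) of gene model, the summed length of a gene's exons. In the *Lhx6* controls the ephrins *Efnb2* (326 ± 65.6 per kb, SD, n = 4), *Efnb3* (179 ± 32.1) and *Efna2* (166 ± 19.96) stood well above the 3 Slits and 2 netrins, of which none was above 8.02 per kb on average. *Slit2* was at 8.02 ± 3.22, *Slit1* at 6.60 ± 2.38, *Ntn4* at 5.20 ± 0.977 and *Ntn1* at 2.39 ± 1.35 per kb, and the lowest ephrin, *Efna1*, at 12.7 ± 5.29, overlapped *Slit2* in spread. On the receptor side *Epha5* (442 ± 84.0), *Epha3* (232 ± 30.9) and *Epha4* (202 ± 24.0) were the highest, *Robo2* (89.8 ± 14.5) and *Dcc* (80.2 ± 4.79) followed, and *Robo1* (23.4 ± 1.30) and *Unc5c* (10.4 ± 3.32) were lower. The spreads of *Epha3* and *Epha4* overlapped, as did those of *Robo2* and *Dcc*.

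The *Mtg8* controls, on a scale normalized on its own, had the same gene at the top in 4 of 8 roles: *Ephb2* of the EphB receptors, *Efnb2* of the ephrin-B ligands, *Robo2* of the Robo receptors and *Ntn4* of the netrins. *Epha3* led there (662 ± 26.4 per kb, SD, n = 3), followed by *Efnb2* (444 ± 61.1) and *Epha5* (413 ± 66.9), whose spreads overlapped. *Robo2* was at 159 ± 26.9, *Neo1* at 102 ± 31.1 and *Dcc* at 93.7 ± 22.4 per kb, and the spreads of the latter pair overlapped. *Slit1* (16.2 ± 1.14) was the highest of the secreted cues per kb, and *Ntn4* (2.73 ± 1.59) and *Ntn1* (1.35 ± 0.991) stayed near the bottom. Before division by length *Slit1* (96.1 ± 6.76 normalized counts) and *Slit2* (100.1 ± 49.4) overlapped. Their order per kb rests on the gene models, of 5921 bases for *Slit1* and 25433 for *Slit2*.

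**Figure D1:**
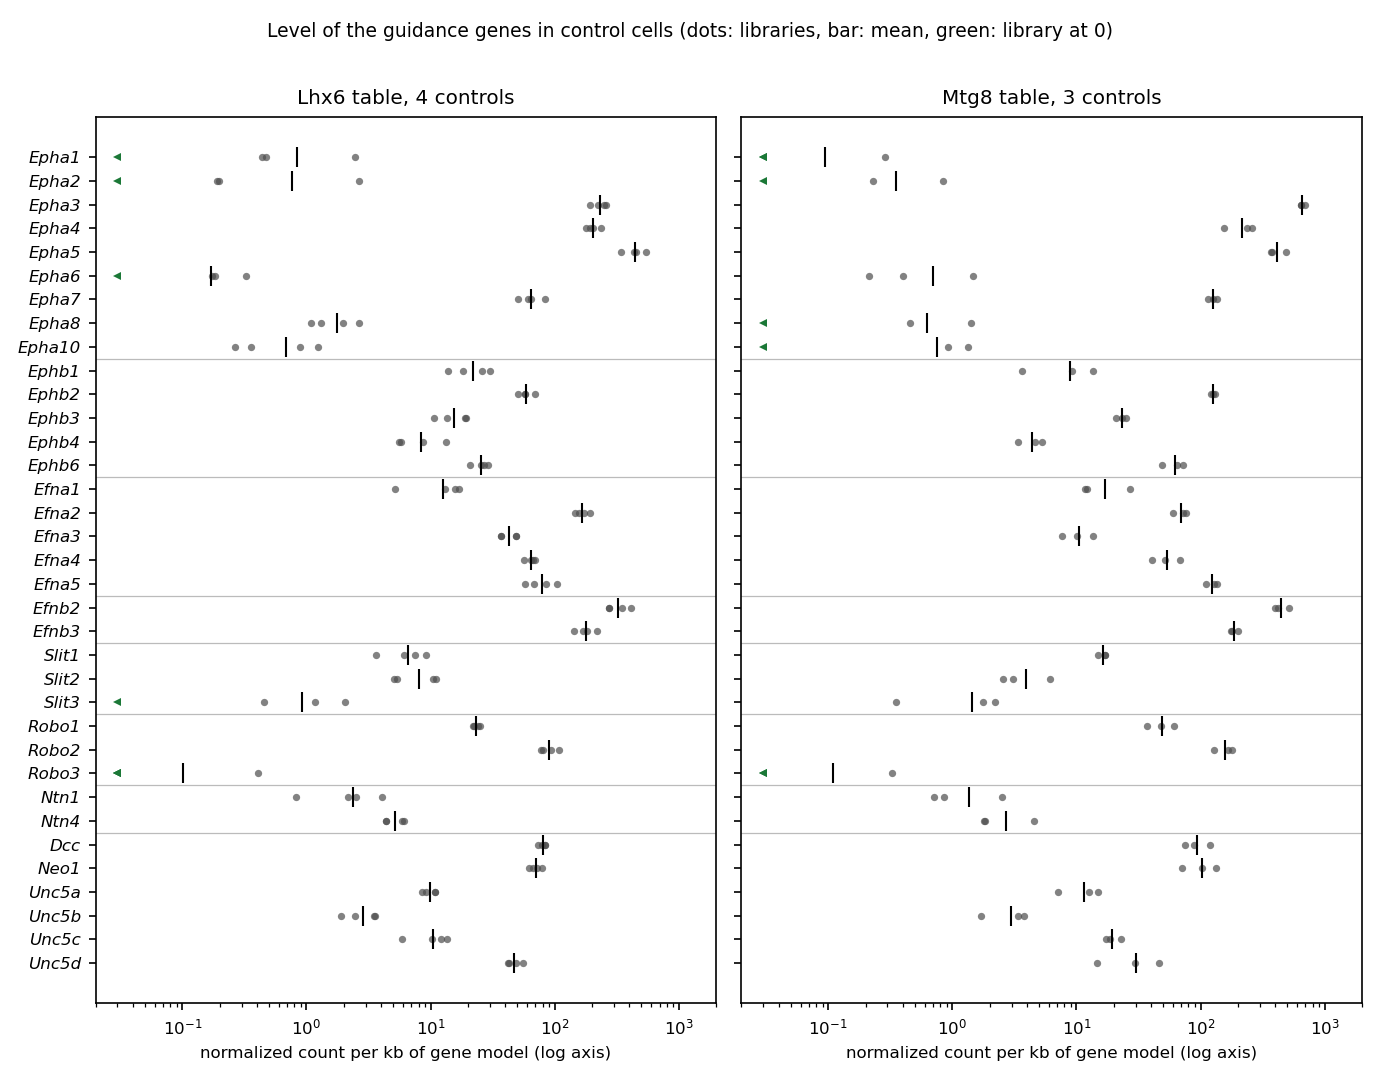
Level of each of the 35 guidance genes in control cells, in normalized counts per kb of gene model on a log axis, for the *Lhx6* table (left) and the *Mtg8* table (right). Each dot is 1 control library, each black bar the mean, and a green triangle marks a library at 0. *Epha5*, *Epha3*, *Epha4*, *Efnb2* and *Robo2* sit to the right, with *Epha5* at 442 per kb in the *Lhx6* controls. Slits, netrins and the Eph receptors *Epha1*, *Epha2*, *Epha6*, *Epha8* and *Epha10* sit to the left.

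Some members were near the limit of detection. *Epha1*, *Epha2*, *Epha6*, *Epha8*, *Epha10*, *Slit3* and *Robo3* had a mean under 10 normalized counts over the 9 libraries of the *Lhx6* table and were not tested there, and the highest value of any of them in any library was 23.3, for *Slit3* in mutant 3. In the *Mtg8* table *Epha1*, *Epha2*, *Epha6*, *Epha8*, *Epha10*, *Robo3*, *Ntn1* and *Ntn4* were not tested, with a highest value of 17.1, for *Ntn4* in control 2. *Epha1* shares 236 bases of exon with the opposite-strand gene *Zyx*, whose mean was 271 normalized counts, and since strand-specific counting was not stated its few reads could belong to either.

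The comparison of *Lhx6* mutants with controls asks which guidance genes change when MGE interneurons reach the cortex without LHX6. *Epha7*, *Robo2*, *Robo1* and *Unc5c*, all receptors, rose by 3.04-fold to 5.44-fold in the mutants, and no guidance gene passed the test as lower. With the style of the library names as a covariate *Epha7* alone passed, and the log2 fold changes of *Robo2*, *Robo1* and *Unc5c* went from 1.95, 1.604 and 1.76 to 1.36, 0.83 and 0.79. No ligand passed the test. Of 35 members 28 could be tested and 4 passed limma's threshold (an adjusted p under 0.05 over all genes), all 4 higher, where 1.71% of all 16727 genes tested passed, 1.03% as higher and 0.682% as lower. The tested members had a median log2 fold change of 0.42, with 22 positive and 6 negative values, and all genes tested had a median of -0.04. In bulk RNA, a change in the number of cells that express a gene and a change in RNA per cell cannot be told apart.

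**Figure D2:**
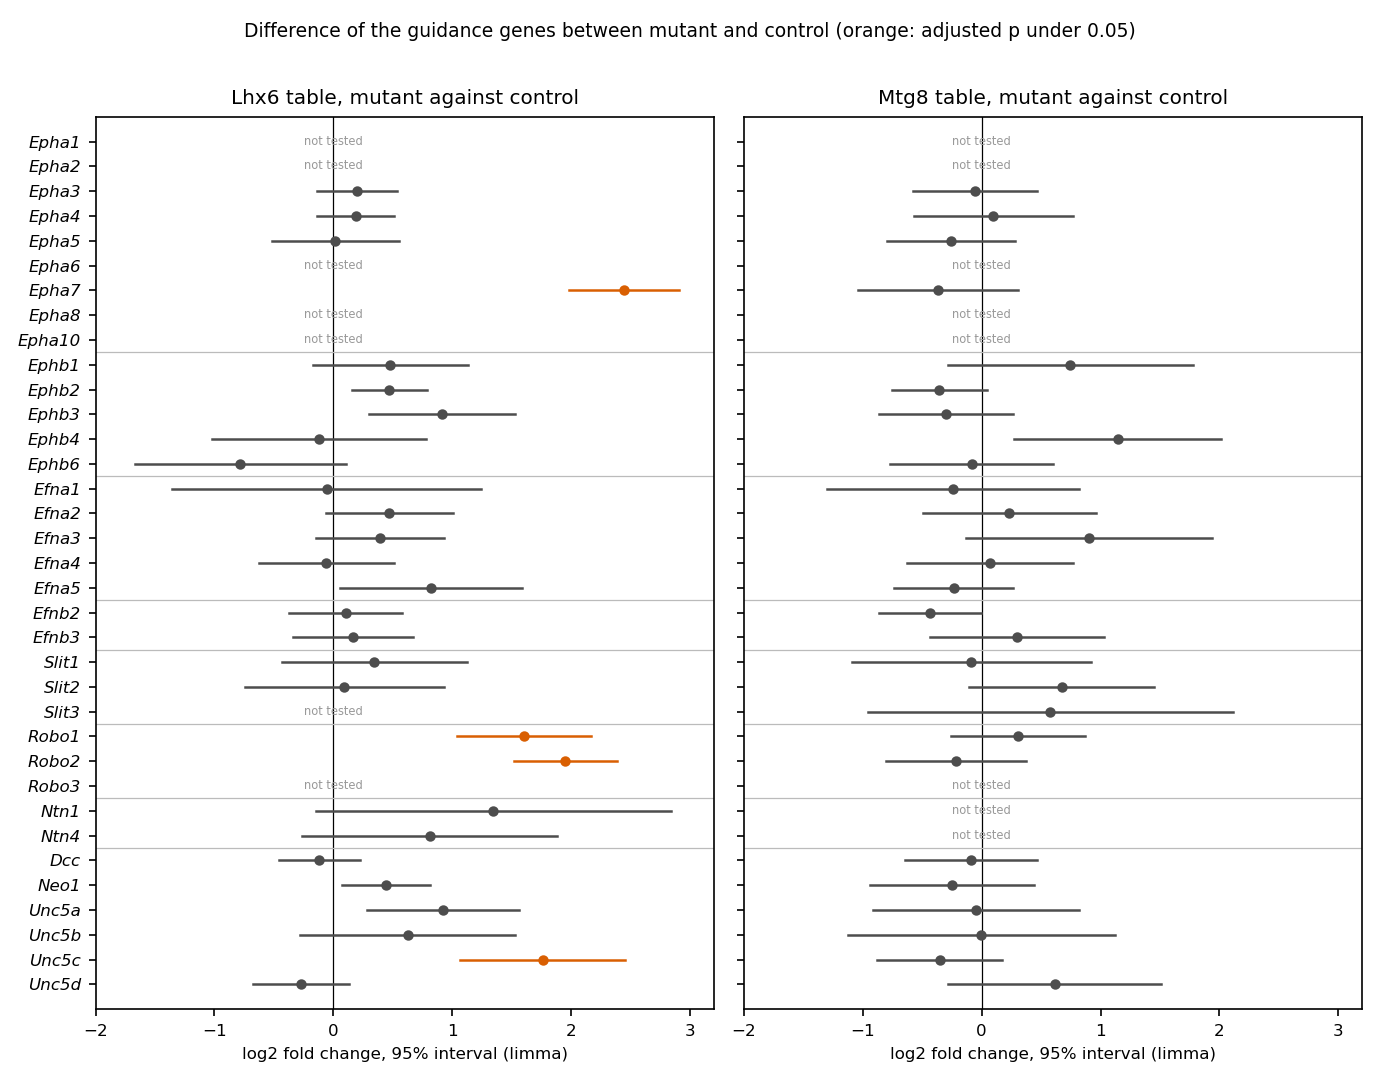
Log2 fold change of each guidance gene, mutant against control, with its 95% interval from limma, in the *Lhx6* table (left) and the *Mtg8* table (right). Orange marks an adjusted p under 0.05, and lines separate the roles. *Epha7* (2.44), *Robo2* (1.95), *Unc5c* (1.76) and *Robo1* (1.604) are orange on the left, and nothing is orange on the right.

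*Epha7* encodes a receptor for ephrin-A ligands. It lies at chr4:28813131-28967499 on the GRCm38 build, with the gene model on the plus strand. Its normalized counts were 819, 635, 601 and 497 in controls 1 to 4, and 3132, 3037, 5493, 3536 and 2533 in mutants 1, 2, 3, 5 and 6. The lowest mutant was thus far above the highest control, and mutant 3 was the highest of all. The mean went from 638 ± 134 (SD, n = 4) to 3546 ± 1145 (SD, n = 5), a log2 fold change of 2.44 with a 95% interval of 1.98 to 2.91 (limma adjusted p = 4.09e-05). In controls *Epha7* made up 6.01% ± 1.21 of the summed level of the 14 Eph receptors, against 24.0% ± 6.06 in the mutants.

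Of the other EphA receptors tested, *Epha3*, *Epha4* and *Epha5*, none passed. *Epha5*, the highest of them in control cells and a receptor for ephrin-A ligands, was at 7513, 5678, 9116 and 7304 in the controls and at 12841, 7504, 7178, 7390 and 4324 in the mutants. Both the highest and the lowest of these 9 values were mutants, and the log2 fold change was 0.02 (95% interval -0.51 to 0.55, limma adjusted p = 0.979). *Epha3* was at 2272, 1667, 1951 and 2176 in the controls and at 2693, 2016, 2884, 2071 and 1996 in the mutants, with groups that overlapped and a log2 fold change of 0.20 (limma adjusted p = 0.605). *Epha4*, which can bind ephrins of either class, had a log2 fold change of 0.19 (limma adjusted p = 0.615). The summed level of all Eph receptors was 1075 ± 81.2 per kb in the controls and 1498 ± 271 in the mutants.

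None of the 5 EphB receptors passed limma's threshold, though *Ephb2* had groups that did not overlap. *Ephb2*, a receptor for ephrin-B ligands, was at 727, 721, 874 and 635 in the controls and at 1131, 997, 1141, 951 and 893 in the mutants. Its lowest mutant, mutant 6, was just above its highest control, control 3, and the log2 fold change was 0.47 (limma adjusted p = 0.163). *Ephb3* had a log2 fold change of 0.91 with overlapping groups (limma adjusted p = 0.167), and DESeq2's Wald test called both (adjusted p = 0.0316 for *Ephb2* and 0.0428 for *Ephb3*). *Ephb4*, known from vessels, was at 26.9, 62.0, 40.5 and 25.7 in the controls and at 42.1, 25.9, 49.4, 18.4 and 40.9 in the mutants, without separation. *Ephb6*, which lacks an active kinase, had the lowest log2 fold change of all 28 members tested in the main fit (-0.78, limma adjusted p = 0.455). With the style of library name as a covariate its log2 fold change was -0.03.

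Ephrins did not pass the test in either class. *Efna2* was at 335, 309, 408 and 365 in the controls and at 827, 603, 331, 413 and 409 in the mutants, so all mutants but mutant 3 were above every control, mutants 5 and 6 only just (log2 fold change 0.47, limma adjusted p = 0.459). *Efna5*, the ephrin-A gene with the largest difference, was at 424, 275, 341 and 232 in the controls and at 283, 1262, 428, 668 and 480 in the mutants. Mutant 2 was the highest and mutant 1 lay among the controls, and the log2 fold change of 0.82 did not pass (limma adjusted p = 0.365). *Efnb2* was at 1863, 1888, 2803 and 2393 in the controls and at 3961, 2464, 1942, 2207 and 1789 in the mutants, again with overlap (log2 fold change 0.11, limma adjusted p = 0.857).

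Slit ligands, low per kb in the controls, did not pass the test. *Slit2* was at 267, 282, 129 and 138 in the controls and at 157, 467, 259, 131 and 141 in the mutants (log2 fold change 0.09, limma adjusted p = 0.929). *Slit1* was at 54.8, 44.3, 35.9 and 21.4 in the controls and at 35.9, 43.5, 62.4, 61.0 and 39.6 in the mutants (log2 fold change 0.34, limma adjusted p = 0.698). Groups overlapped for each of them.

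Of the Robo receptors, *Robo2* and *Robo1* passed in the main fit, and *Robo3* was not tested. *Robo2*, at chr16:73891839-74411825 on the minus strand, was at 1370, 1574, 1306 and 1852 in the controls and at 7929, 5987, 7385, 5035 and 3879 in the mutants. The lowest mutant, mutant 6, was above the highest control, control 4. Its mean went from 1526 ± 246 (SD, n = 4) to 6043 ± 1663 (SD, n = 5), a log2 fold change of 1.95 with a 95% interval of 1.52 to 2.39 (limma adjusted p = 0.000169).

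*Robo1*, at chr16:72308306-73046095 on the plus strand, lies 0.846 Mb from *Robo2*. Its normalized counts were 395, 412, 372 and 365 in the controls and 2222, 1105, 1221, 1089 and 685 in the mutants. The controls were close together and every mutant was above them, with mutant 1 the highest and mutant 6 the lowest. Its mean went from 386 ± 21.5 to 1264 ± 573, a log2 fold change of 1.604 with a 95% interval of 1.04 to 2.17 (limma adjusted p = 0.00574). Together with *Robo3*, which had no read in 7 of 9 libraries, the Robo receptors summed to 113 ± 14.1 per kb in the controls and to 433 ± 128 in the mutants, and *Robo2* made up 79.0% ± 2.87 and 82.7% ± 3.13 of that sum.

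Among the netrin receptors *Unc5c* rose and *Dcc* did not. *Unc5c*, a receptor for repulsion by netrin, lies at chr3:141465216-141834924 on the plus strand and was at 260, 195, 230 and 113 in the controls and at 719, 690, 1079, 651 and 331 in the mutants. Groups were separate, with mutant 6 closest to the controls. Its mean went from 199 ± 63.5 to 694 ± 266, a log2 fold change of 1.76 with a 95% interval of 1.07 to 2.46 (limma adjusted p = 0.0122), a call that was lost in limma without the trend (adjusted p = 0.0611). The gene shares 118 bases of exon with the antisense RNA *Gm15688*, whose mean was 5.06 normalized counts.

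*Dcc*, the netrin receptor of attraction, was at 1100, 1047, 970 and 1107 in the controls and at 1229, 921, 951, 1087 and 742 in the mutants, a log2 fold change of -0.12 with a 95% interval of -0.46 to 0.22 (limma adjusted p = 0.764). *Neo1*, which encodes neogenin, was at 541, 693, 630 and 579 in the controls and at 1070, 913, 813, 773 and 630 in the mutants, of which mutant 6 lay among the controls (log2 fold change 0.44, limma adjusted p = 0.291). *Unc5a* was at 45.2, 35.5, 45.1 and 38.5 in the controls and at 118, 55.5, 78.2, 65.9 and 87.9 in the mutants. Its groups did not overlap, yet the log2 fold change of 0.92 did not pass (limma adjusted p = 0.179, DESeq2 adjusted p = 0.0360). Of the summed level of the 6 netrin receptors *Unc5c* made up 4.74% ± 1.58 in the controls and 13.2% ± 4.37 in the mutants, and *Dcc* 33.6% to 38.7% and 25.2% to 31.8%.

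The netrins themselves were close to the limit of testing. *Ntn4* was at 16.3, 22.2, 23.03 and 16.2 in the controls and at 90.3, 46.3, 27.9, 15.5 and 26.0 in the mutants, where mutant 1 was the highest and mutant 5 the lowest of all 9 (log2 fold change 0.81, limma adjusted p = 0.522). *Ntn1* had a log2 fold change of 1.35 with a wide interval of -0.15 to 2.84 and did not pass (limma adjusted p = 0.445). Its log2 fold change was 0.95 to 1.95 with a library left out, and 2.39 with the style of library name as a covariate.

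**Figure D3:**
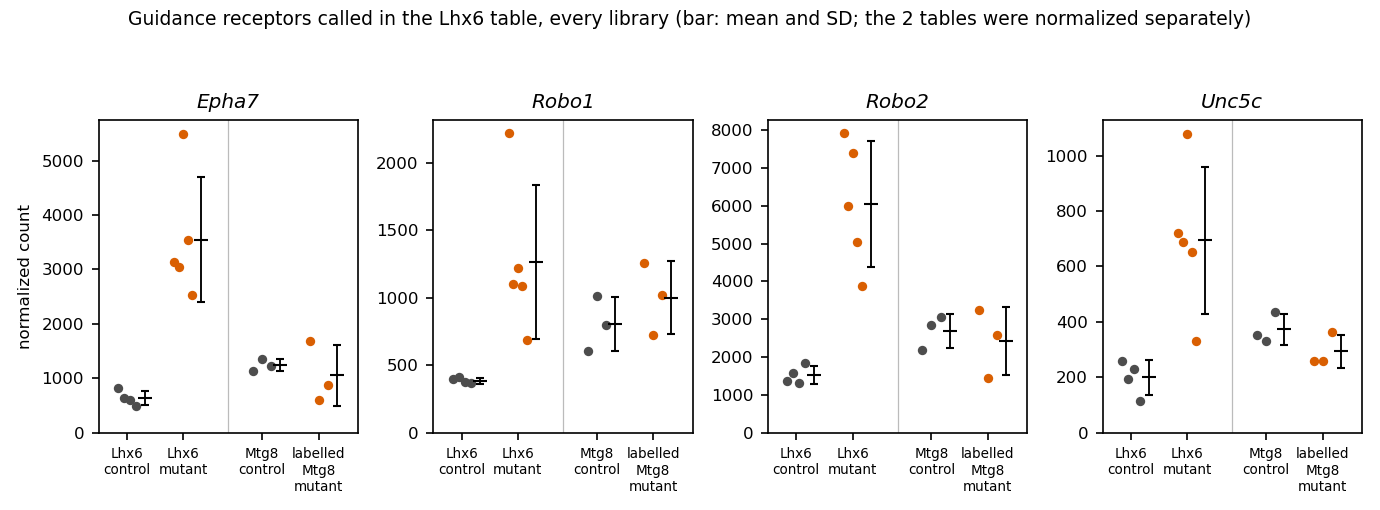
Normalized counts of *Epha7*, *Robo1*, *Robo2* and *Unc5c* in every library, with controls in grey, mutants in orange and bars for mean and SD. All 5 *Lhx6* mutants lie above all 4 *Lhx6* controls for each gene, while the 3 *Mtg8* controls and the 3 libraries labelled *Mtg8* mutant overlap. The tables were normalized separately, so heights compare within a table only.

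In all, 6 of the 28 tested members had mutant and control libraries that did not overlap (*Epha7*, *Robo2*, *Robo1*, *Unc5c*, *Unc5a* and *Ephb2*), all 6 higher in the mutants, where 6.22% of all genes tested did not overlap and 3.19% did so as higher. On unadjusted p 9 members were under 0.05 against 12.7% of all genes. DESeq2 called 7 members, all 7 higher (4.53% of the genes it tested, 3.02% as higher), and edgeR called 4 (1.67%).

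**Figure D4:**
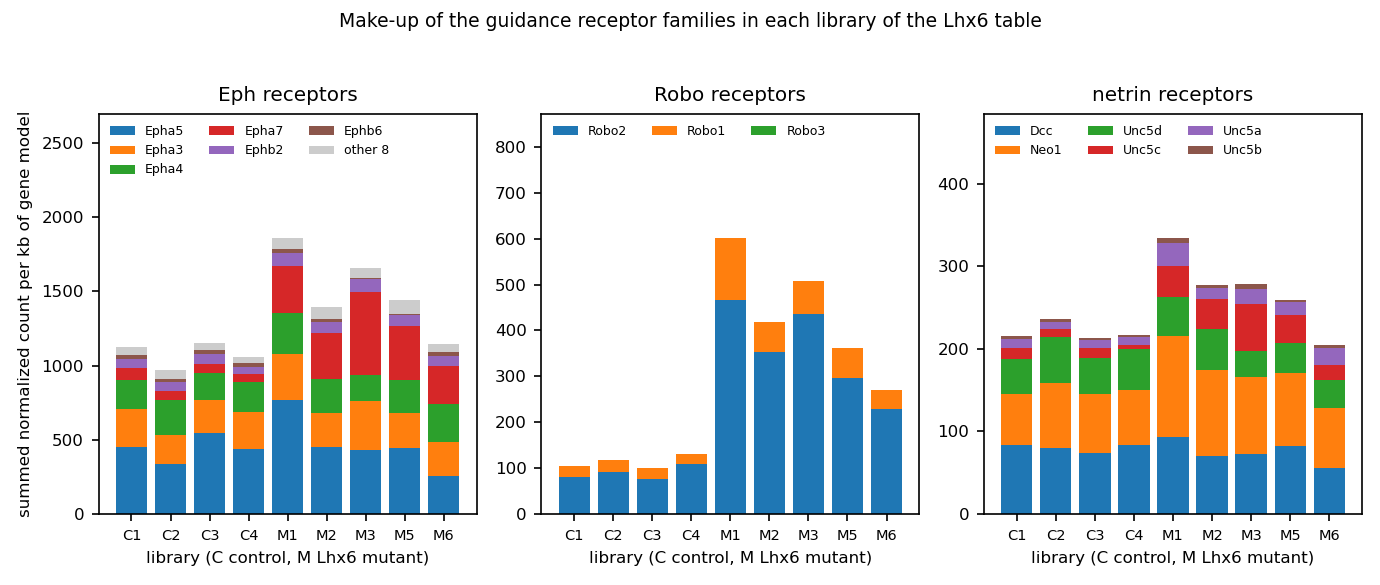
Summed level of the Eph, Robo and netrin receptors in each library of the *Lhx6* table, in normalized counts per kb of gene model, stacked by gene. C marks controls and M mutants. *Epha7* (red, left) and *Unc5c* (red, right) take up a larger share of the mutant columns. *Robo2* and *Robo1* (middle) are both taller in the mutants, *Robo1* with 20.9% ± 2.78 of the column in controls and 17.3% ± 3.16 in mutants, and the Robo sum is at 99.9 to 131 per kb in controls and at 270 to 602 in mutants.

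The names of the libraries came in different styles in the *Lhx6* table, and this style moved with the genotype. All 4 controls and mutant 6 have undated names, while mutants 1, 2, 3 and 5 have names that carry a date, and no source says what the date marks. Controls 1 and 2 and mutant 6 share a stem in their names, as do mutants 2 and 5, and no source says whether a stem marks a litter. Mutant 6 against the 4 undated controls gave a log2 fold change of 2.01 for *Epha7*, 1.36 for *Robo2*, 0.83 for *Robo1* and 0.79 for *Unc5c*. With the style of name as a covariate the genotype term rests on mutant 6 alone, which is assumed to vary like the other libraries, and limma's adjusted p was 0.0251 for *Epha7*, 0.0784 for *Robo2*, 0.803 for *Robo1* and 0.99998 for *Unc5c*. With 1 mutant library in that contrast, these values do not show that the 4 receptors differ from each other. For the dated mutants, genotype and style of name cannot be told apart.

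Marker lists of other lineages were read in the same libraries. The 5 listed markers of interneurons from the caudal ganglionic eminence (CGE) summed to 1182 to 1377 normalized counts in the controls and to 2188 to 2866 in the mutants, with *Adarb2* called higher, *Htr3a* called lower and none at 0. Striatal and cholinergic markers summed to 779 to 1132 and 1386 to 2720, with 0 of 6 tested called and *Gbx1* at 0 in some libraries. Of the 14 MGE interneuron markers 4 were called lower (*Lhx6*, *Sst*, *Npy* and *Satb1*), 1 higher (*Dlx5*), and they summed to 52264 to 64096 in the controls and to 31900.2 to 53047 in the mutants. That sum includes *Lhx6*, the mutated gene itself, and *Sst*, at 10942 to 12780 in the controls and 1180 to 1696 in the mutants. It is therefore not read as a number of MGE cells. *Neurod6*, which marks the pyramidal lineage, was present in every library, at 8408 to 12817 in the controls and at 6812 to 9427 in the mutants. The 11 pyramidal markers summed to 16995 to 22536 and 13473 to 18357, with 0 called. The part of these other cells in the receptor differences was not tested.

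The start sites of the receptors that rose were read for the TAAT core that homeodomain proteins such as LHX6 recognise. Shown are the 250 bases before the start site, 5′ to 3′ on the strand of the gene, from RefSeq on GRCm38.p6, in lower case with every TAAT or its reverse complement ATTA in capitals. The windows are chr4:28812881-28813130 (plus strand) for *Epha7*, chr16:72662899-72663148 (plus strand) for *Robo1*, which is the start of a shorter transcript inside the gene, and chr16:74411826-74412075 (minus strand) for *Robo2*.
Epha7: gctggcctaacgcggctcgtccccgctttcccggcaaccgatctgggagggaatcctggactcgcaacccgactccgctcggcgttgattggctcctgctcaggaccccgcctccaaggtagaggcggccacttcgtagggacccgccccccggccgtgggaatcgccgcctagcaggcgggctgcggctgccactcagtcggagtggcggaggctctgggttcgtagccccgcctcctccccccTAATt
Robo1: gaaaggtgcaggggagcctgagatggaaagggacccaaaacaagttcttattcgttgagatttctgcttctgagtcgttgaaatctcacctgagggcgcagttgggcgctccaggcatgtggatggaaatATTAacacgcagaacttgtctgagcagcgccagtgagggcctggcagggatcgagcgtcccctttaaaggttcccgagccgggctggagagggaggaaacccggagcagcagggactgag
Robo2: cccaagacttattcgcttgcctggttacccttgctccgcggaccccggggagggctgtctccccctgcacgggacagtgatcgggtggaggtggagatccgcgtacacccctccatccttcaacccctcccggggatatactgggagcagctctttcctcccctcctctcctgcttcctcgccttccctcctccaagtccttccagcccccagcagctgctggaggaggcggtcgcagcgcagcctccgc

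The window of *Epha7* holds 1 core, which begins 5 bases before the start, that of *Robo1* holds 1, which begins 120 bases before it, and that of *Robo2* holds none. A second window of *Epha7*, chr4:28812895-28813144 (plus strand), overlaps the one shown and holds 2. *Robo2* has 2 other windows in RefSeq, at starts beyond the end of the gene model used here, and both hold a core. A window for *Unc5c*, chr3:141465314-141465563 (plus strand), holds 1 core, but in the GENCODE annotation it lies within the transcribed first exon. The longer palindrome TAATTA, which contains both TAAT and ATTA, was in 0 of these 4 windows. Over all 32851 RefSeq windows of this length 54.9% held a TAAT or ATTA and 4.84% held TAATTA. Of the 35 guidance genes 30 were matched to a window, 11 of these held TAAT or ATTA in any of their windows, and 3 held TAATTA (*Efna1*, *Epha5* and *Robo3*, of which none was called). These are counts of genes, some with several windows, while the shares over all windows count single windows, so they are not compared. The windows of the called receptors were rich in G and C, from 56.0% for *Robo1* to 71.2% for *Unc5c*, where the median over all windows was 52.4%.

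Further genes of the same pathways were read from a second list. This list of ligands, co-receptors, effectors and proteases held 48 genes, of which 46 were in the *Lhx6* table and 44 were tested. Of these 2 passed, both lower, where 1.71% of all genes passed, and the median log2 fold change was 0.18. *Nell1*, a relative of the ROBO3 ligand NELL2, went from 173 ± 45.8 to 56.0 ± 16.1, a log2 fold change of -1.63 (limma adjusted p = 0.0122). *Flrt2*, a transmembrane partner of UNC5 receptors, went from 1641 ± 309 to 965 ± 193, a log2 fold change of -0.77 (limma adjusted p = 0.0492). Neither call was firm: that of *Nell1* was lost without control 1 (limma adjusted p = 0.0557) or control 4 (0.0720), and that of *Flrt2* was lost without any library but mutant 1. DESeq2 called 6 genes of the list, *Nell1* and *Flrt2* as lower where 1.51% of all genes were, and *Flrt1*, *Flrt3*, *Dag1* and *Srgap3* as higher where 3.02% of all genes were.

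The comparison of the libraries labelled *Mtg8* mutant with their controls asks the same of the co-repressor. No guidance gene passed limma's threshold there, and none of the receptors that rose in *Lhx6* mutants was separated from its controls. Of 27 members tested 0 passed in limma (0.00% of all 16132 genes), 0 in DESeq2 (0.191% of the genes it tested) and 0 in edgeR (0.00620%). On unadjusted p 2 members were under 0.05, *Ephb4* and *Efnb2*, against 5.49% of all genes. The median log2 fold change was -0.06 over the members and -0.01 over all genes tested. Standard errors of the members were 0.18 to 0.71 on the log2 scale, and even *Ephb4*, at 1.14 with a standard error of 0.40, did not pass, so changes of that size could be missed here.

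*Epha7* was at 1132, 1351 and 1234 in controls 1, 2 and 4 and at 1681, 593 and 884 in mutant-labelled libraries 2, 3 and 4. Library 2 was above every control and the other two were below, and the log2 fold change was -0.37 (95% interval -1.04 to 0.31, limma adjusted p = 0.891). *Robo2* was at 2181, 2845 and 3057 in the controls and at 3252, 1455 and 2572 in the mutant-labelled libraries, with the same order among those libraries (log2 fold change -0.21, 95% interval -0.80 to 0.38, limma adjusted p = 0.929). *Robo1* was at 608, 1010 and 800.2 in the controls and at 1261, 721 and 1020 in the mutant-labelled libraries (log2 fold change 0.31, 95% interval -0.26 to 0.87, limma adjusted p = 0.891).

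*Unc5c* was at 354, 329.5 and 434 in the controls and at 258, 259 and 362 in the mutant-labelled libraries, of which library 4 lay among the controls (log2 fold change -0.35, 95% interval -0.88 to 0.17, limma adjusted p = 0.871). The tables were normalized and fitted separately, and the difference between them was not tested. In this table controls 1 and 2 and mutant-labelled library 2 have dated names that share a stem. Within the dated libraries *Epha7* differed by 0.44 and *Robo2* by 0.38 on the log2 scale, and within the undated ones by -0.77 and -0.66, so their direction was not the same in the 2 styles, while *Robo1* (0.69 and 0.10) and *Unc5c* (-0.40 and -0.50) kept theirs.

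Groups did not overlap for 3 members, 1 higher and 2 lower, where 10.2% of all genes tested in the *Mtg8* table did not overlap, 4.68% as higher and 5.52% as lower. *Ephb4* was at 24.6, 21.3 and 15.7 in the controls and at 35.1, 56.1 and 48.9 in the mutant-labelled libraries (log2 fold change 1.14, limma adjusted p = 0.859), at a level of few reads. *Ephb2* was at 1654, 1545 and 1596 in the controls and at 1408, 1131 and 1224 in the mutant-labelled libraries (log2 fold change -0.35, limma adjusted p = 0.859). *Efnb2* was at 2863, 3526 and 2751 in the controls and at 2703, 2193 and 1896 in the mutant-labelled libraries (log2 fold change -0.43, limma adjusted p = 0.859).

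The remaining members named by level overlapped between the groups. *Epha3* was at 5626, 6019 and 5619 in the controls and at 8275, 3929 and 5196 in the mutant-labelled libraries. *Epha5* was at 6169, 6354 and 8195 in the controls and at 4578, 4651 and 8793 in the mutant-labelled libraries. In these 2 receptors library 2 and library 4, respectively, exceeded every control, while the others were below every control.

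*Efna5* was at 516, 544 and 444 in the controls and at 515, 341 and 435 in the mutant-labelled libraries. *Efna2* was at 129, 164 and 154 in the controls and at 102, 251 and 206 in the mutant-labelled libraries. *Slit1* was at 88.3, 100.2 and 99.8 in the controls and at 108, 37.7 and 180 in the mutant-labelled libraries, and *Slit2* was at 64.8, 78.9 and 157 in the controls and at 149.5, 115 and 192 in those libraries.

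*Dcc* was at 986, 1559 and 1156 in the controls and at 1607, 918 and 1003 in the mutant-labelled libraries. *Neo1* was at 903, 1155 and 613 in the controls and at 1093, 751 and 464 in the mutant-labelled libraries. *Unc5a* was at 52.5, 61.9 and 29.3 in the controls and at 32.9, 45.0 and 58.1 in the mutant-labelled libraries. These netrin receptors had adjusted p-values of 0.929 to 0.988 in limma, and their log2 fold changes were between -0.25 and -0.05. *Ntn4*, which was not tested, was at 6.71, 17.1 and 6.85 in the controls and at 12.5, 8.27 and 6.12 in the mutant-labelled libraries.

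Of the further pathway genes 47 were in the *Mtg8* table, 44 were tested and 0 passed in limma, 0 in DESeq2 and 0 in edgeR, with 2 under an unadjusted p of 0.05, where 5.49% of all genes were. *Nell1* had a log2 fold change of -0.14 and *Flrt2* of -0.59 there. The 14 MGE interneuron markers summed to 81673 to 87580.0 normalized counts in the controls and to 51972 to 66929 in the libraries labelled *Mtg8* mutant, the 11 pyramidal markers to 5843 to 14267 and 9146 to 23030, and the 10 markers of radial glia and dividing cells to 7990 to 8857 and 10166 to 14165, with 0 called in each list and none of these genes at 0 in any library. The part of these lists in the values of the guidance genes was not tested.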

How the data were processed

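RNA-seq libraries were made with a low-input kit from sorted cells of single embryos and read as single 75-base ends. Per the labels and methods, the authors trimmed reads (fastp 0.20.1), aligned them to GRCm38 (STAR 2.7b), counted them per GENCODE gene (featureCounts 1.6.4) and left out sex-linked genes. The authors deposited a normalized signal per gene and library, the count divided by a DESeq2 size factor, in 1 table per mutant. Whole reads were recovered from it (100% of values whole within 0.01). The columns with the authors' own comparison (mean, log2 fold change, its error, test statistic and p-values) were not used.

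Each table was fitted alone with limma 3.58.1 (R 4.3.3) on log2(normalized count + 1) with a mean-variance trend, two-sided, on genes whose mean reached 10, and p-values were adjusted by Benjamini-Hochberg over all genes tested, with a threshold of 0.05. Log2 fold changes on this scale understate those of low genes. Alternatives were pseudocounts of 0.5 and 10, no filter and a minimum mean of 50, TMM factors, no trend, DESeq2 1.42.0 and edgeR 4.0.16 on recovered reads, the replicate number as a block, the style of library name as a covariate, and each library left out. Values in every library are given for members that passed the test, had separate groups (at most 6 a table) or were the highest of their role in controls. Members, gene lists and marker lists were chosen with earlier results of these data known. Some marker genes are not reported here. Markers *Chat*, *Drd2* and *Vip*, and the pathway gene *Ntn5*, were not in the tables used here.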

Additional observations from a re-analysis of the deposited data

How the results depend on the processing

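For *Lhx6*, 4 guidance genes passed in limma and also with each library left out in turn (4 to 4), with both other pseudocounts and filters, TMM factors and edgeR. DESeq2 on recovered reads called 7, and the style of library name as a covariate left 1, *Epha7*. *Unc5c* missed the threshold without the trend (limma adjusted p = 0.0611). Of the further pathway genes, 2 in the main fit, 1 passed with a pseudocount of 0.5, 1 without the filter on low values, 1 without the trend and 6 in DESeq2, 0 passed with the style of library name as a covariate, and 0 to 3 with a library left out. For *Mtg8*, 0 guidance genes and 0 further genes passed under every alternative run.

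The replicate number as a block kept the count of guidance genes in the *Lhx6* table at 4 (*Epha7* 2.46, *Robo2* 2.32, *Robo1* 1.87, *Unc5c* 1.84 on the log2 scale) and took the further genes from 2 to 0. Control 4 and mutants 5 and 6 have no partner of the same number, so the genotype term of that fit rests on replicates 1, 2 and 3. In these replicates every control has an undated name and every mutant a dated one, so that fit cannot separate genotype from style of name. Libraries of the same number shared no common deviation in the *Lhx6* table (correlation -0.0269 on average over 3 pairs, -0.154 to 0.0717), and the 2 pairs of the *Mtg8* table, at 0.138 and 0.159, were too few to tell, so no pairing was assumed.

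Of 39 log2 fold changes examined, 12 changed sign under some alternative, and none of these 12 passed under any alternative in the same table. Signs also changed for 3 of 7 further members in the *Lhx6* table and 7 of 11 in the *Mtg8* table whose tests are not printed. With the style of name as a covariate the *Lhx6* table gave -0.0046 for *Epha3*, -0.76 for *Epha5*, 0.16 for *Ephb4*, -0.30 for *Efnb2* and -0.44 for *Slit2*, and TMM factors gave -0.018 for *Epha5*. In the *Mtg8* table *Epha3* was at 0.0099 in DESeq2, 0.025 in edgeR, 0.17 with the block and 0.10 with the style of name, *Slit1* at 0.17 in DESeq2, 0.19 in edgeR and 0.47 with the block, *Efna2* at -0.13 and *Unc5a* at 0.034 with the block, and *Unc5a* at 0.0022, *Dcc* at 0.053 and *Neo1* at 0.021 with the style of name. With a library left out the ranges that crossed 0 were, in the *Lhx6* table, -0.18 to 0.21 for *Epha5*, -0.29 to 0.13 for *Ephb4*, -0.080 to 0.22 for *Efnb2* and -0.21 to 0.28 for *Slit2*, and, in the *Mtg8* table, -0.35 to 0.19 for *Epha3*, -0.028 to 0.62 for *Efna2*, -0.58 to 0.53 for *Slit1*, -0.46 to 0.12 for *Robo2*, -0.34 to 0.094 for *Dcc*, -0.54 to 0.072 for *Neo1* and -0.36 to 0.16 for *Unc5a*. The cause of these changes was not tested. Low counts limit the precision. Among the guidance genes tested, the largest standard error was that of *Ntn1* in the *Lhx6* table (0.69) and of *Slit3* in the *Mtg8* table (0.71).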

Other observations

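Markers of cell types other than neurons of the MGE, CGE, striatum and pyramidal lineage gave these further values. In the *Lhx6* table the 10 markers of radial glia and dividing cells summed to 10894 to 12882 normalized counts in the controls and to 9847 to 20583 in the mutants, those of oligodendrocyte precursors to 54.7 to 106 and 56.2 to 326, those of endothelial and mural cells to 122 to 568.4 and 162 to 504, those of microglia and blood, which include the globin genes, to 4102 to 39266 and 1162 to 13505, and those of Cajal-Retzius cells to 1637 to 2776 and 1829 to 2861. None of these genes passed limma's threshold.

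In the *Mtg8* table the sums for controls and for the libraries labelled *Mtg8* mutant were 6.40 to 304 and 51.0 to 525.9 for oligodendrocyte precursors, 115 to 757 and 222 to 386 for endothelial and mural cells, 7158 to 19038 and 10367 to 21188 for microglia and blood, 1620 to 3083 and 1167 to 3252 for Cajal-Retzius cells, 1431 to 1527 and 1493 to 2067 for CGE interneurons, and 544 to 902 and 598 to 1134 for striatal and cholinergic cells, again with none called.

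Among the 56 sets of 4 or 5 libraries formed by each tested guidance gene and genotype in the *Lhx6* table, none had a library that stood apart by Dixon's criterion at 95%, where chance gives about 1 in 20.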
